A study of Homo sapiens with 5 samples.

Results

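Chromosome 19 carries a large share of the human genes for KRAB zinc finger proteins, packed into clusters. The peaks described here are those that start in 4 such stretches of hg19. Window 1 runs from 19800000 to 24600000, window 2 from 44300000 to 45000000, window 3 from 52300000 to 54000000 and window 4 from 56200000 to 58900000. A peak was taken as a member by its start position, whatever its width or mark. They held 1206 of the 10597 chromosome 19 peaks in 4 peak lists, or 11.4%, and 0.331% of the 364358 peaks in all. The lists map 2 histone marks, H3K27ac (lysine 27 of H3 acetylated) and H3K4me1 (its lysine 4 carrying 1 methyl group), in VCaP. VCaP is an established human prostate cancer line, here grown in medium with serum and with no treatment named. There were 2 libraries for H3K27ac, 2 for H3K4me1 and 1 input library, which is not analysed here. All come from the same line, whose identity could not be checked against marker genes here. Each value in the windows was set against the rest of chromosome 19.

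KRAB zinc finger proteins are DNA-binding proteins, many of which silence transposable elements by recruiting the corepressor KAP1 (TRIM28). Their genes arose by repeated local duplication, and in many cell types their bodies and 3' ends carry the repressive mark H3K9me3 while their promoters stay open. H3K27ac marks active promoters and active enhancers. H3K4me1 marks enhancers, active or not, and the flanks of promoters, and it is low at the start site of a strongly active promoter. Window 1 lies on the short arm, in a cluster known for its expansion in primates, and windows 2 to 4 lie on the long arm.

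In the RefSeq gene table for GRCh38.p14, 265 of 1451 protein-coding genes of chromosome 19 (18.3%) had zinc finger symbols. Of these, 218 stood in 19 runs of at least 5 neighbouring zinc finger genes. The longest run held 27 genes, from ZNF737 to ZNF681, among them ZNF91, which is known to repress SVA elements. Another run held 20 genes, from ZNF283 to ZNF180. That table is of another build than the peaks, so it is used for names and gene order only and no gene was assigned to a peak. Zinc finger runs also occur outside the windows, for example the 24 genes from ZNF565 to ZNF793 and the 24 from ZNF627 to ZNF791, so the rest of the chromosome is not free of such genes.

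The windows together covered 9.9 Mb and the rest 45.5 Mb. The rest was measured between the outermost peaks, leaving out the windows and the longest stretch without a peak in any list (24280580 to 28238461, 3.96 Mb). The last 0.319 Mb of window 1 fell in that stretch and were counted in the length of window 1. Sequencing depth is unknown for every library, and the lists hold positions and names only. Each library was therefore compared with its own rest of chromosome 19. A peak is an interval of 1 list. A replicated region is a merged interval that holds at least 1 peak of each of the 2 lists of a mark.

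Peaks of both marks were sparser in the windows than in the rest of the chromosome in 4 of 4 libraries. H3K27ac had 25.8 and 31.3 peaks per Mb in the windows (replicates 1 and 2), against 41.0 and 50.2 in the rest. H3K4me1 had 32.2 and 32.5 peaks per Mb in the windows, against 56.5 and 58.7 in the rest. For each mark the libraries' values in the windows and in the rest did not overlap. The mean log2 ratio of windows to rest was -0.68 (SD 0.0076, n = 2) for H3K27ac, or 0.626 times the rest. It was -0.83 (SD 0.029, n = 2) for H3K4me1, or 0.562 times. Over all 4 libraries it was -0.75, and the exact two-sided sign-flip permutation test gave p = 0.125, the smallest value 4 libraries allow (0.556 after Benjamini-Hochberg adjustment over 10 tests, in which the adjusted values ran from 0.556 to 1). H3K27ac minus H3K4me1 was 0.16 on the log2 scale, with an exact permutation p of 0.333, the smallest that 2 against 2 libraries can give. Without window 1 the log2 ratios were -0.19 for H3K27ac and -0.13 for H3K4me1, and the difference between the marks turned round to -0.067.

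Window 1 was the sparsest window for both marks, more so for H3K4me1. H3K27ac had 14.8 and 18.3 peaks per Mb in window 1, which is 0.361 and 0.365 times the rest. H3K4me1 had 10.4 and 11 peaks per Mb, which is 0.184 and 0.188 times the rest. The exact 95% Poisson intervals, which cover counting error only, were 11.6 to 18.7 and 14.7 to 22.6 per Mb for H3K27ac and 7.73 to 13.7 and 8.27 to 14.4 for H3K4me1. All of them lay below the intervals of the same library in the rest, the lowest of which began at 39.1 per Mb for H3K27ac and 54.4 for H3K4me1. H3K27ac covered 1.74 and 1.52% of the bases of window 1, against 5.89 and 5.75% in the rest. H3K4me1 covered 0.452 and 0.601% of window 1, against 3.76 and 5.21% in the rest, or 0.120 and 0.115 times.

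**Figure D1:**
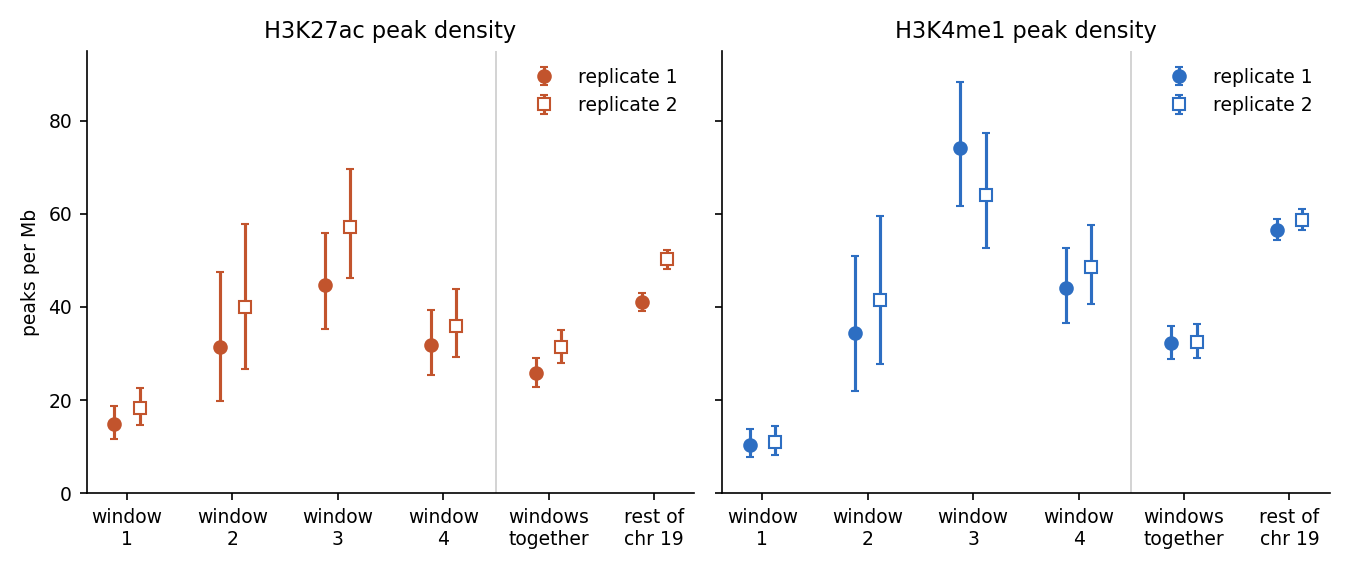
Peaks per Mb of H3K27ac (left) and H3K4me1 (right) in each window, in the windows together and in the rest of chromosome 19. Filled circles are replicate 1, open squares replicate 2, and bars are exact 95% Poisson intervals of the count. Window 1 has 10.4 to 18.3 peaks per Mb over both marks, below every other point, and window 3 is the densest window for each library.

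Window 3 stood at the other end. H3K27ac had 44.7 and 57.1 peaks per Mb there, against 41.0 and 50.2 in the rest, and H3K4me1 had 74.1 and 64.1, against 56.5 and 58.7. The intervals of window 3 took in the value of the rest in 3 of 4 libraries, and in H3K4me1 replicate 1 the interval of 61.7 to 88.2 lay above it. Covered length stood farther above the rest than peak number did. H3K27ac covered 10.7 and 10.3% of window 3, 1.82 and 1.79 times the rest, and H3K4me1 covered 5.40 and 7.33%, or 1.43 and 1.41 times. In window 4 both marks were somewhat sparser than in the rest, with ratios of 0.777 and 0.716 for H3K27ac and of 0.780 and 0.826 for H3K4me1. Window 2 holds only 22 to 29 peaks per list, and its ratios were 0.767 and 0.797 for H3K27ac and 0.606 and 0.705 for H3K4me1. Windows 2 to 4 together had 36.1 and 43.5 H3K27ac peaks per Mb and 52.7 H3K4me1 peaks per Mb in both libraries, between 0.867 and 0.933 times the rest.

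Relative to the other autosomes and chromosome X, the windows together were denser in H3K27ac peaks and sparser in H3K4me1 peaks, the sparser H3K4me1 not holding without window 1. The windows had 1.35 and 1.39 times the H3K27ac peak density of the other chromosomes, which was 19 and 22.5 per Mb. They had 0.772 and 0.735 times the H3K4me1 density, which was 41.7 and 44.3 per Mb elsewhere. Window 1 was below the other chromosomes for both marks, at 0.777 and 0.814 times for H3K27ac and 0.250 and 0.249 times for H3K4me1. Windows 2 to 4 together, with 52.7 H3K4me1 peaks per Mb in both libraries, were above the other chromosomes. Window 4 was at 1.06 and 1.1 times for H3K4me1, and window 2 at 0.821 and 0.936 times. Window 3 was above the other chromosomes for both marks, at 2.35 and 2.53 times for H3K27ac and 1.78 and 1.45 times for H3K4me1.

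The windows also varied within themselves. In tiles of 0.5 Mb, the 10 tiles of window 1 held 0 to 28 replicated H3K27ac regions per Mb with a median of 13, and 0 to 22 H3K4me1 regions with a median of 4. All 10 lay below the medians of the 90 tiles of the rest, which were 36 and 42.7 per Mb. The 3 tiles of window 3 held 32 to 46 H3K27ac and 30 to 50 H3K4me1 regions per Mb. The 5 tiles of window 4 ranged from 8 to 46 for H3K27ac and from 12 to 54 for H3K4me1. In window 4 the tile with fewest H3K27ac regions (57200001 to 57700000) had 4 and that with most (58200001 to 58700000) had 23, with 6 and 21 H3K4me1 regions. Its tile with most H3K4me1 regions was another (57700001 to 58200000), with 22 H3K27ac and 27 H3K4me1 regions. The tile of window 1 with most H3K27ac regions (21300001 to 21800000) had 14 H3K27ac and 11 H3K4me1 regions, and that of window 3 (52300001 to 52800000) had 23 and 25. In window 1, 0 regions of either mark lay in the tiles from 22300001 to 22800000 and from 24300001 to 24600000. The latter tile spans 0.3 Mb and lies inside the long stretch without peaks, which was left out of the rest and its tiles but counts in the range and medians of window 1. The tile of window 3 with fewest H3K27ac regions (52800001 to 53300000) had 16 H3K27ac and 19 H3K4me1 regions. The single full tile of window 2 had 17 H3K27ac and 15 H3K4me1 regions.

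**Figure D2:**
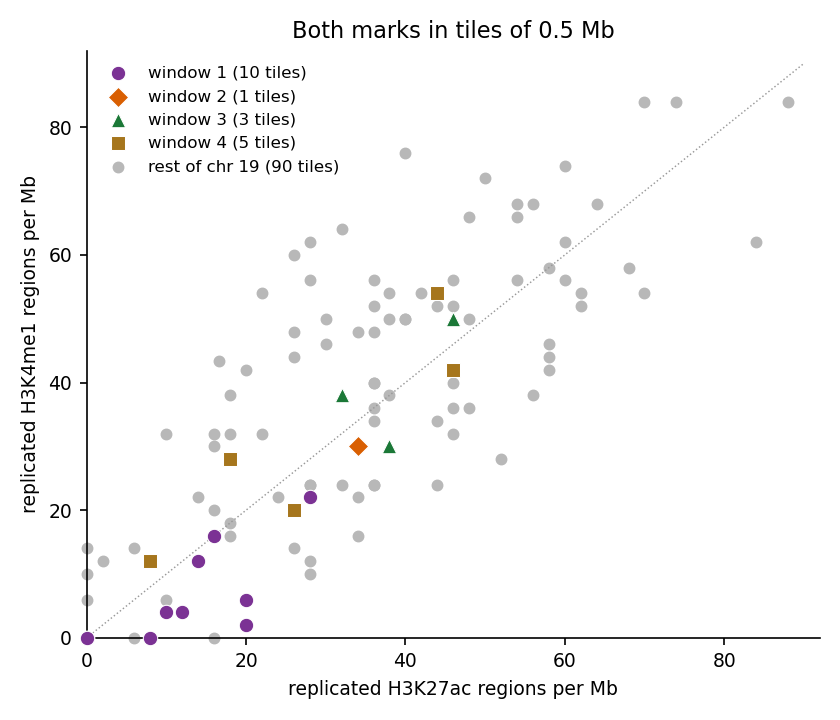
Replicated H3K4me1 regions per Mb (vertical axis) against replicated H3K27ac regions per Mb (horizontal axis) in tiles of 0.5 Mb, with the last tile of a window kept where it spans at least 0.25 Mb. Coloured points are tiles of the windows, grey points the 90 tiles of the rest of chromosome 19, and the dotted line marks equal numbers. The 10 tiles of window 1 sit at 0 to 28 H3K27ac and 0 to 22 H3K4me1 regions per Mb.

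Long empty stretches lay in window 1. No list had a peak from 22037114 to 22816582, a length of 779 kb, nor from 22817850 to 23257510, a length of 440 kb. In the rest of the chromosome the longest such stretch outside the one left out measured 419 kb. For replicated H3K27ac regions alone, the longest distance between neighbours was 779 kb in window 1 and 918 kb in the rest. Between the empty stretches stood 2 narrow replicated H3K27ac regions, of 281 and 679 bp. Replicated H3K4me1 was missing over a longer distance, from 21973735 to 23437388, or 1464 kb, while the longest distance between replicated H3K4me1 regions in the rest was 1334 kb. Inside this stretch of window 1 lay 8 replicated H3K27ac regions, and H3K4me1 replicates 1 and 2 had 1 and 2 peaks there that did not form a replicated region. The longest stretches without any peak were 70.7 kb in window 2 (44334159 to 44404847), 127 kb in window 3 (52902653 to 53029663) and 172 kb in window 4 (57443329 to 57614837). Window 4 also had a stretch, from 57350248 to 57682276, with no replicated H3K27ac region and with 5 replicated H3K4me1 regions.

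H3K27ac peaks were wider in the windows than in the rest, and H3K4me1 peaks slightly narrower. The median H3K27ac peak measured 1541 and 980 bp in the windows (replicates 1 and 2), against 1122 and 814 bp in the rest. The median H3K4me1 peak measured 434 and 599 bp in the windows, against 487.5 and 631 bp in the rest. Each library kept its direction against its own rest, although in bp the lists' medians in the windows and in the rest overlapped for each mark. The mean log2 ratio was 0.36 (SD 0.13, n = 2) for H3K27ac and -0.12 (SD 0.065, n = 2) for H3K4me1. The marks differed by 0.48 on the log2 scale, with an exact permutation p of 0.333, the smallest possible, and the sign-flip test over both marks gave an exact p of 0.5. Without window 1 the log2 ratios were 0.62 for H3K27ac and -0.0012 for H3K4me1. In window 1 the H3K27ac medians were 1190 bp, above the rest in replicate 1, and 703 bp, below it in replicate 2. The H3K27ac medians of windows 2 to 4 ranged from 1466.5 to 1903 bp in replicate 1 and from 1086.5 to 1291 bp in replicate 2. The narrowest H3K4me1 medians were 306 and 423 bp in window 1 and 278 and 498 bp in window 2.

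**Figure D3:**
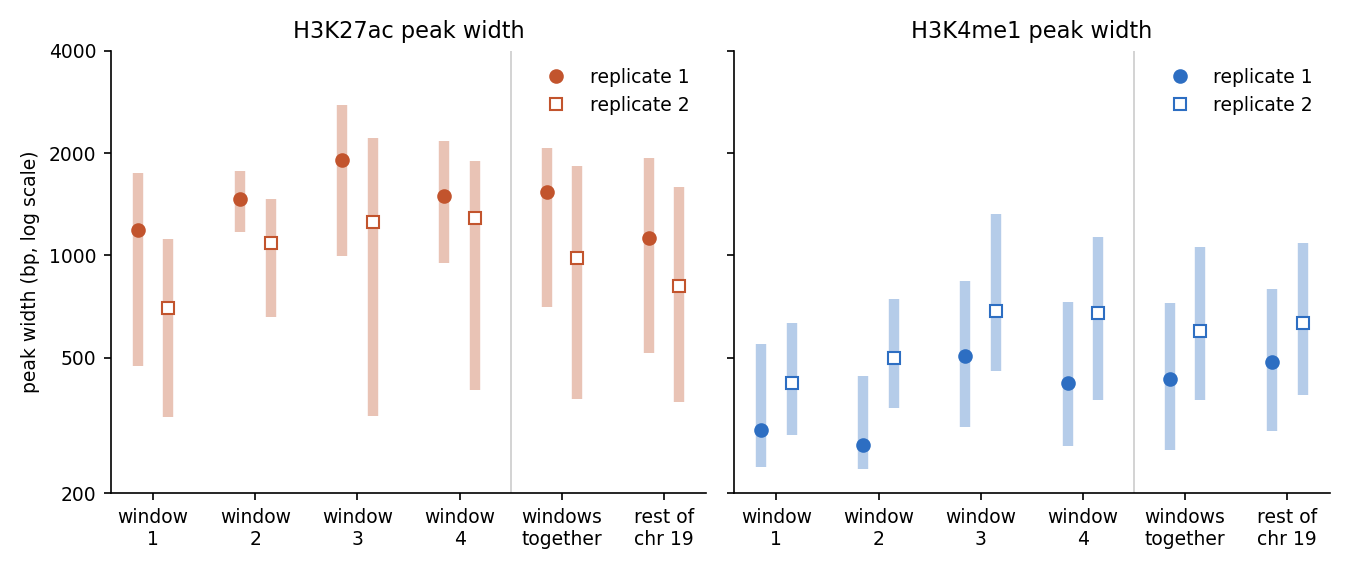
Width of H3K27ac peaks (left) and H3K4me1 peaks (right) in each area, on a log scale. Markers are medians of replicate 1 (filled) and replicate 2 (open), and shaded bars run from the first to the third quartile over peaks. H3K27ac medians in windows 2 to 4 lie above those of the rest, 1122 and 814 bp, in the same replicate.

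Among the windows, the widest regions of both marks lay in windows 3 and 4, while the rest held wider ones, up to 23976 bp for H3K27ac and 10313 bp for H3K4me1. Of the replicated H3K27ac regions, 7 of 71 in window 3 and 3 of 80 in window 4 reached 5 kb, while 0 of 64 did in window 1 and 0 of 22 in window 2, for which the exact 95% upper bounds are 5.6 and 15.4%. In the windows together 10 of 237 did so, or 4.22% (exact 95% binomial interval 2.04 to 7.62%), against 36 of 1718 in the rest, or 2.1% (1.47 to 2.89%). These intervals overlap. The widest H3K27ac region of the windows (52477553 to 52490858) measured 13306 bp, with 13268 and 13254 bp in replicates 1 and 2. Replicated H3K4me1 regions covered 77.3% of it, while the H3K4me1 lists differed, with 42.5% in replicate 1 and 76.8% in replicate 2. It was followed by 53438072 to 53449695 with 11624 bp, 52457512 to 52467953 with 10442 bp, 52403509 to 52410905 with 7397 bp and, in window 4, 58330005 to 58337336 with 7332 bp. Their H3K4me1 coverage was 67.0, 72.7, 50.02 and 71.9%. The widest H3K27ac regions of window 1 (24215591 to 24219014, 3424 bp) and of window 2 (44438117 to 44441114, 2998 bp) had replicated H3K4me1 over 5.81 and 7.64% of their length. In the window 2 region the H3K4me1 lists differed, with 0% covered in replicate 1 and 31.5% in replicate 2.

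The 5 widest H3K4me1 regions of the windows all lay on H3K27ac, as wide H3K4me1 regions mostly did in the rest too. Of H3K4me1 regions of at least 2000 bp, 27 of 27 in the windows overlapped H3K27ac, against 201 of 223 in the rest (90.1%). The widest, in window 3 (52522744 to 52529585, 6842 bp), was covered by H3K27ac over 60.5%, and the next, in window 4 (58332316 to 58338876, 6561 bp), over 76.5%. The others were 52482197 to 52488386 (6190 bp, 100% covered), 57868547 to 57873579 (5033 bp, 96.5%) and 52459263 to 52463682 (4420 bp, 100%). Those at 52482197 and 52459263 fall inside the widest and the third widest H3K27ac regions of the windows. The region at 52482197 was 1 peak of 6190 bp in replicate 2, but 4 peaks with 2845 bp in replicate 1. In windows 1 and 2 the widest H3K4me1 regions measured only 2002 bp (20192495 to 20194496) and 1868 bp (44483729 to 44485596), with 90.6 and 37.4% covered by H3K27ac.

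H3K27ac regions in the windows stood farther apart. The median distance between neighbouring replicated H3K27ac regions was 21.8 kb in the windows, against 11.4 kb in the rest. It was 28.7, 24.6, 17.8 and 21.1 kb in windows 1 to 4. Of these distances, 27.9% were at most 10 kb in the windows, against 46.8% in the rest. When regions up to 10 kb apart were joined into domains, 121 of 172 H3K27ac domains in the windows were a single region (70.3%), against 505 of 914 in the rest (55.3%). The share was 73.5, 90, 53.5 and 73.3% in windows 1 to 4, so window 3 was slightly below the rest. The domain with the most H3K27ac in the windows (52457512 to 52490858) joined 2 regions with 23.7 kb of H3K27ac, against 40.5 kb in 5 regions for that of the rest. The largest of window 1 (23573380 to 23586462) had 4.72 kb in 4 regions. For H3K4me1 the median distance was 12.7 kb in the windows, against 9.37 kb in the rest.

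The share of H3K27ac regions that carried H3K4me1 was lower in window 1 than in the rest, and for the windows together its interval overlapped that of the rest. Of 237 replicated H3K27ac regions in the windows, 131 overlapped a replicated H3K4me1 region by at least 1 bp, or 55.3% (48.7 to 61.7%), against 1091 of 1718 in the rest, or 63.5% (61.2 to 65.8%). The share was 21.9% in window 1 (14 of 64, 12.5 to 34.0%), 50% in window 2 (11 of 22, 28.2 to 71.8%), 70.4% in window 3 (50 of 71, 58.4 to 80.7%) and 70% in window 4 (56 of 80, 58.7 to 79.7%). The interval of window 1 lay below that of the rest, and the intervals of the other windows took in the share of the rest. Without window 1 the share was 67.6% (117 of 173, 60.1 to 74.5%), so the direction against the rest turned round. The part in this of the low H3K4me1 coverage of window 1, given above, was not tested.

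The shortfall in window 1 appeared in every pairing of lists. H3K27ac replicate 1 had 28.2 and 31.0% of its window 1 peaks on peaks of H3K4me1 replicates 1 and 2, and H3K27ac replicate 2 had 21.6 and 19.3%. The same pairings gave 63.6, 70.0, 60.2 and 66.7% in the rest. In window 2 the H3K4me1 lists disagreed, with 27.3 and 28.6% of H3K27ac peaks on replicate 1 peaks and 68.2 and 60.7% on replicate 2 peaks. Counting any H3K4me1 peak of either list, 42 of the 64 H3K27ac regions of window 1 still had none, against 413 of 1718 in the rest. Those of window 1 without a replicated H3K4me1 region lay at a median of 39.3 kb from the nearest, against 7.79 kb in the rest.

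The share of H3K4me1 regions that carried H3K27ac was higher in the windows together than in the rest, with intervals that only just parted at an overlap of 1 bp. Of 225 replicated H3K4me1 regions, 164 overlapped H3K27ac, or 72.9% (66.6 to 78.6%), against 1227 of 1905 in the rest, or 64.4% (62.2 to 66.6%). The share was 57.6% in window 1 (39.2 to 74.5%), 64.7% in window 2 (38.3 to 85.8%), 80.7% in window 3 (70.6 to 88.6%) and 72.8% in window 4 (62.6 to 81.6%). Among the single windows, the interval of window 3 alone lay clear of that of the rest. When an overlap of at least 50% of the shorter interval was asked for, windows minus rest was -0.938 percentage points, against 8.48 points with 1 bp. Within 5 kb of an H3K27ac region lay 87.6% of the windows' H3K4me1 regions, against 79.6% in the rest.

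Single peaks were also compared in each library. H3K27ac peaks lay on replicated H3K4me1 in 54.9 and 47.4% of cases in the windows, against 62.3 and 59.8% in the rest. H3K4me1 peaks lay on replicated H3K27ac in 62.7 and 63.4% in the windows, against 57.5 and 55.8% in the rest. The mean differences were -9.90 points (SD 3.49, n = 2) for H3K27ac and 6.35 points (SD 1.64, n = 2) for H3K4me1. H3K27ac minus H3K4me1 was -16.3 points, with an exact permutation p of 0.333, the smallest possible. Both shares count overlaps between the same 2 marks, over the number of intervals of 1 mark or the other, so they are not independent. The part of the marks' unequal densities in their difference was not tested. Over both marks the mean was -1.77 points, with an exact sign-flip p of 0.875. Without window 1 the H3K27ac difference turned round to 2.59 points and H3K27ac minus H3K4me1 was -6.36 points. Without window 3 the H3K4me1 difference turned round to -0.582 points.

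**Figure D4:**
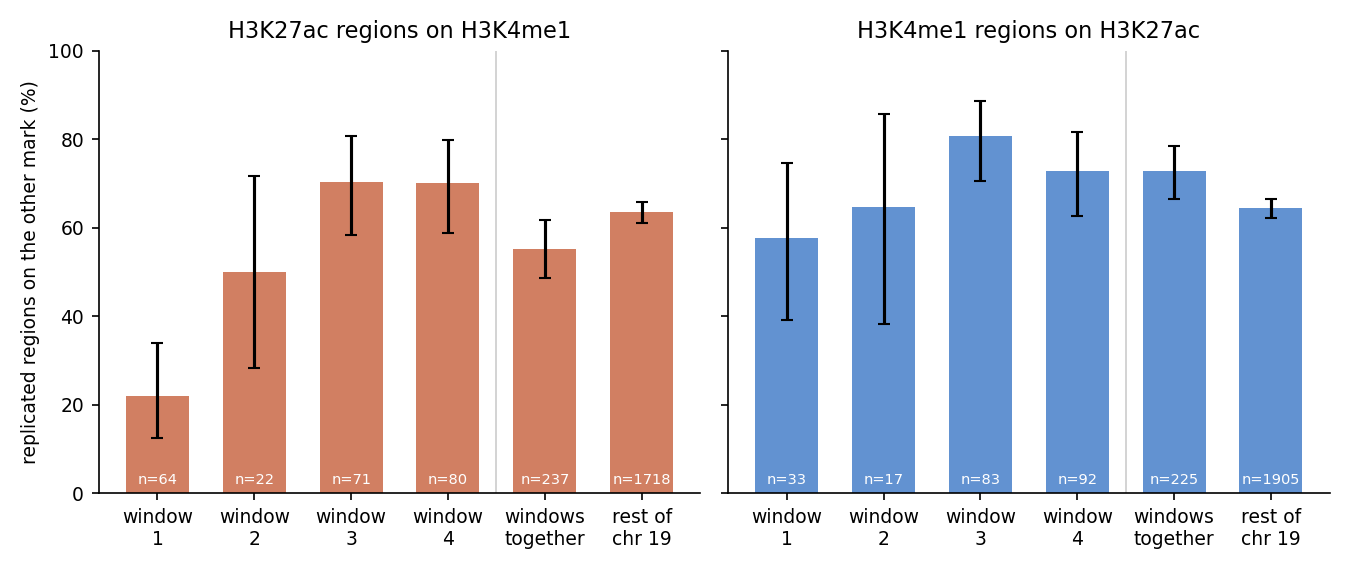
Percentage of replicated H3K27ac regions on replicated H3K4me1 (left) and of H3K4me1 regions on H3K27ac (right), with exact 95% binomial intervals over regions and the number of regions in each bar. Window 1 stands at 21.9% for H3K27ac regions, against 63.5% in the rest of chromosome 19.

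Wider H3K27ac regions carried H3K4me1 more often, and window 1 had the lower share in each width class. H3K27ac regions of window 1 carried H3K4me1 in 4 of 26 cases under 1000 bp (15.4%), 6 of 27 from 1000 to 2000 bp (22.2%) and 4 of 11 wider ones (36.4%). In the rest the shares in those classes were 48.6, 62.8 and 83.7%. In window 4 they were 46.7, 63.2 and 92.6%, and in window 3 they were 53.3, 60.0 and 83.3%. A wider region meets another interval more easily, and these shares were not tested.

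When merged regions of both marks were sorted by content, window 1 was mostly H3K27ac alone. There 50 of 78 had H3K27ac alone (64.1%, 52.4 to 74.7%), 14 both marks and 14 H3K4me1 alone. In the rest 27% had H3K27ac alone (25.2 to 28.9%), 43.7% both and 29.2% H3K4me1 alone. Windows 3 and 4 had 55.4 and 52.9% with both marks and 25.3 and 23.1% with H3K27ac alone. By covered length the ratio of H3K27ac to H3K4me1 was 1.47 to 2.31 over the pairings of libraries in the windows, against 1.1 to 1.56 in the rest. The log2 ratio of windows to rest in covered length was -0.41 for H3K27ac and -0.90 for H3K4me1, with SDs of 0.035 and 0.070 (n = 2 each). The difference of 0.49 had an exact permutation p of 0.333, and the sign-flip test over both marks an exact p of 0.125. Without window 1 the log2 ratio of H3K27ac turned round to 0.26, while H3K27ac minus H3K4me1 was 0.36.

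The middle of H3K27ac regions was less often covered by H3K4me1 in the windows together than in the rest, though not in window 3. The shape of the profile differed between the H3K4me1 lists. Replicated H3K4me1 covered the middle of 20.7% of the 237 regions in the windows (15.7 to 26.4%), against 33.7% of the 1718 in the rest (31.5 to 36.0%). At 1 kb to either side it covered 27.2% in the windows, against 27.6% in the rest, and at 2 kb 12.7% against 13.3%. With H3K4me1 replicate 1 alone the windows together had no lower coverage in the middle (21.1%) than at 1 kb (19.6%), and with replicate 2 alone they had 19.8% in the middle and 31.0% at 1 kb. The rest had 27.6% in the middle and 21.9% at 1 kb with replicate 1, and 34.3 and 28.4% with replicate 2. Between the 2 lists, a middle below the value at 1 kb in the windows thus rested on replicate 2. Lower coverage of the middle in the windows together than in the rest was seen with each list. Window 3 did not share it, with 36.6% for replicated H3K4me1 and an interval (25.5 to 48.9%) that took in the share of the rest. Its middle was covered in 38.0% with replicate 1 alone, above the rest, and in 33.8% with replicate 2 alone, slightly below it. With replicated H3K4me1, the values in the middle and at 1 kb were 9.38 and 10.2% in window 1, 4.55 and 20.5% in window 2 (22 regions), 36.6 and 38.7% in window 3, and 20 and 32.5% in window 4. In window 4 they were 18.8 and 18.1% with replicate 1 alone. The intervals of windows and rest were apart in the class from 1000 to 2000 bp, with 11.1% in the windows (5.68 to 19%) and 30.3% in the rest (26.6 to 34.3%), and they overlapped in the narrower and wider classes. Median widths in that class were 1589 and 1425.5 bp. In the widest class the middle was covered in 23.4% of the windows' regions and 27.2% of those of the rest, against 43.5 and 46.8% at 1 kb. Windows minus rest in the middle was -13.0 points, and it was -6.55 points with H3K4me1 replicate 1 alone and -19.8 points without window 3. These differences were not tested.

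**Figure D5:**
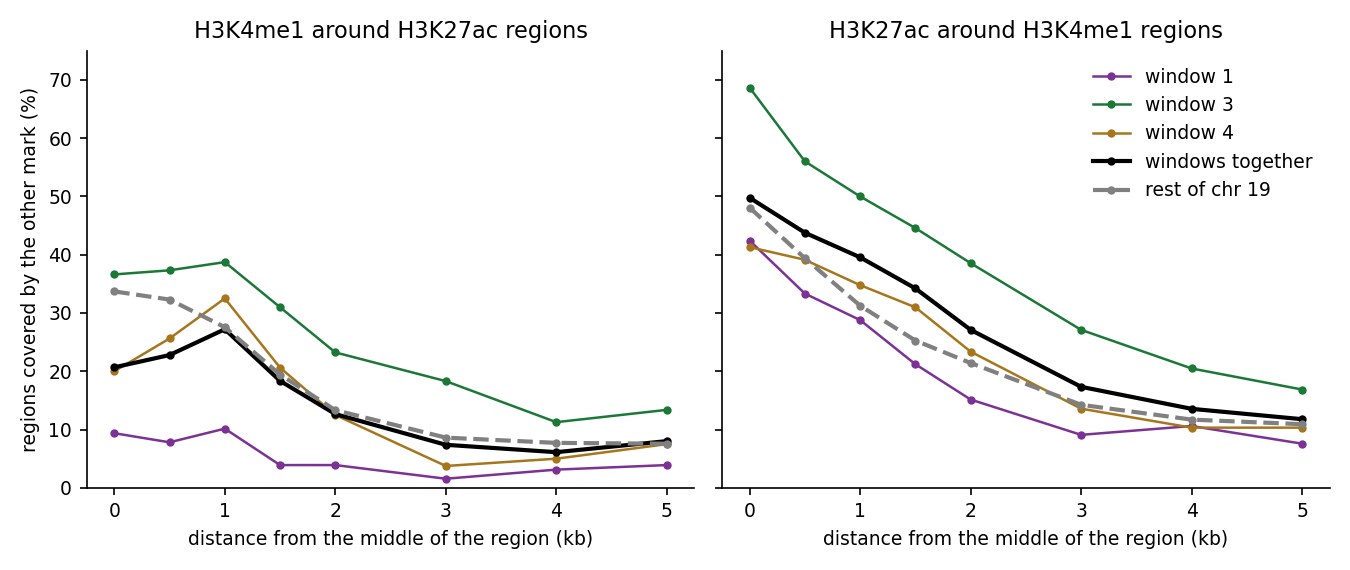
Percentage of replicated H3K27ac regions covered by replicated H3K4me1 (left), and of H3K4me1 regions covered by H3K27ac (right), by distance from the middle of the region in kb, averaged over both sides. Window 2, with 22 H3K27ac regions, is not drawn. On the left the windows together are at 20.7% in the middle and 27.2% at 1 kb, while the rest of chromosome 19 is highest in the middle at 33.7%. With H3K4me1 replicate 1 alone, which is not drawn, the windows together are at 21.1% in the middle and 19.6% at 1 kb.

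Replication between the lists of a mark differed little between windows and rest. A peak of the other list was met by 94.1 and 88.4% of the H3K27ac peaks of replicates 1 and 2 in the windows, against 94.3 and 87.8% in the rest. For H3K4me1 the shares were 88.1 and 71.1% in the windows, against 87.3 and 72.6% in the rest. The mean difference over 4 libraries was -0.066 points, with an exact sign-flip p of 0.875, and 2 libraries were higher and 2 lower. Without window 1 it turned round to 1.25 points. Peaks found in only 1 of the lists were narrow. Their median width in replicates 1 and 2 was 305 and 226 bp (H3K27ac) and 251 and 381 bp (H3K4me1) in the windows, against 312 and 231.5 bp (H3K27ac) and 260 and 381 bp (H3K4me1) in the rest.

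By window, H3K4me1 replicated unevenly. In window 1, 70 and 64.2% of its peaks recurred, against 87.3 and 72.6% in the rest, and in window 2 the shares were 75 and 58.6%. They were 89.7 and 78.0% in window 3, and 96.6 and 71.0% in window 4. By length, the bases covered in both lists made up 37.4 and 30.5% of those covered in either in windows 1 and 2, and 60.1 and 54.3% in windows 3 and 4, against 57.2% in the rest. For H3K27ac the same measure was 74.1, 86.8, 86.6 and 87.1% in windows 1 to 4, against 81.4% in the rest. Across replicated regions, Spearman's rho between the lengths covered in the 2 lists was 0.967 (H3K27ac, 237 regions) and 0.735 (H3K4me1, 225 regions) in the windows, against 0.962 and 0.806 in the rest. For H3K4me1 it was 0.481 in window 1 (33 regions), 0.257 in window 2 (17 regions), 0.815 in window 3 (83 regions) and 0.767 in window 4 (92 regions). These are descriptions across regions, which share their libraries and are not replicates.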

How the data were processed

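Chromatin immunoprecipitation with sequencing was done on VCaP cells with 2 libraries per mark. Named in the submitters' processing notes are MACS2 2.1.0, Bowtie 1.1.2, Trimmomatic 0.33 and bcl2fastq 2.17, with hg19 (GRCh37) as the build. For their roles, the peak threshold and the control, the entry is "not given in the sources used here". Per the file contents, the authors deposited 1 list per library with 4 columns (chromosome, start, end, name), so the values are positions in bp, the depth is unknown, and Poisson and binomial intervals cover counting error only. Labels do not say whether replicates are separate cultures, so p-values speak only for these samples, whose spread may be technical. A p-value at its smallest possible value shows that the libraries agree in direction or order, not how large their spread is. The sign-flip test over both marks takes libraries of 2 different marks together.

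Python 3.11.15, numpy 2.4.6, scipy 1.17.1 and matplotlib 3.10.9 were used. A peak belongs to a window if it starts in it, and coordinates are printed counted from 1. Both lists of a mark were joined into regions at overlaps of 1 bp or more. Ratios to the rest of chromosome 19 were tested by exact sign-flip permutation over 4 libraries and exact permutation of 2 against 2, neither of which can reach 0.05. Density, width and overlap of H3K27ac were checked on simulated data with set values. Covered length and the H3K4me1 measures were not checked in this way. The simulated lists of a mark shared their peak starts, so replication was fixed in advance there. The alternatives tried are given in the closing section. Windows, lists and comparisons were chosen with earlier results of these data known. Regions are named by rule: the widest replicated regions of each mark per window and the 5 widest over all windows, the longest stretches with no peak, and the tiles with most and fewest H3K27ac regions. The stretches without regions of 1 mark, the window 4 tile with most H3K4me1 regions, the 440 kb stretch, the narrow regions beside it, the largest joined domains and their joining distance of 10 kb were chosen after their values were seen. Promoters, genes near peaks and sequence were not examined, because no genome or annotation of hg19 was used here.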

Additional observations from a re-analysis of the deposited data

Results flagged for a closer look

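Every H3K27ac library moved one way and every H3K4me1 library the other in 4 comparisons of the windows with the rest of chromosome 19. These 4 were picked by that rule from density, covered length, width, replication and overlap, each in every single window and in the windows together. With 2 libraries per mark, such a pattern of signs can arise without a difference between the marks. In the windows together, H3K27ac minus H3K4me1 was 0.48 on the log2 scale for median peak width and -16.3 percentage points for the share of peaks on the other mark. The shares of the 2 marks count overlaps between the same 2 marks, so they are not independent of each other or of the marks' densities. In window 2 it was 0.98 for median peak width, with log2 ratios to the rest of 0.40 for H3K27ac and -0.58 for H3K4me1. In window 2 it was 20.3 points for replication between lists, with 7.17 points above the rest for H3K27ac and -13.1 points for H3K4me1. The permutation test of each difference gave an exact p of 0.333, the smallest possible for 2 against 2 libraries. Window 2 rests on 22 to 29 peaks per list.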

How the results depend on the processing

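Of 315 alternatives over 21 results, 279 counted as kept, 22 reversed and 14 moved by more than the spread between replicates. The cause was not tested. For results with a p-value, kept meant the same sign and the same side of the test threshold. No test here could pass that threshold, so for these results the count speaks for sign only, not for size. Without window 1, density went from -0.68 to -0.19 for H3K27ac and from -0.83 to -0.13 for H3K4me1, both counted as kept. For results without a p-value, kept meant the same sign and a move smaller than the spread. All values are windows against the rest, on the log2 scale for density and covered length and in percentage points otherwise. Without window 1, density (H3K27ac minus H3K4me1) was -0.067, covered length was 0.078 over both marks and 0.26 for H3K27ac, and replication was 1.25 over both marks and -1.55 for H3K27ac minus H3K4me1. Peak overlap was then 5.76 over both marks and 2.59 for H3K27ac, and the share of replicated regions on the other mark was 4.13 for H3K27ac and 11.1 for H3K4me1. Without window 2, replication was 0.171 over both marks and -1.27 for H3K27ac minus H3K4me1. Without window 3, H3K4me1 peak overlap was -0.582, the region shares were -14.7 for H3K27ac and 3.90 for H3K4me1, and H3K4me1 at the middle of H3K27ac regions was -19.8. Without window 4 the H3K27ac share was -15.7. With the windows extended by 0.2 Mb, replication was 0.235 over both marks and -1.15 for H3K27ac minus H3K4me1, peak overlap over both marks was 0.262 and the H3K27ac share was -3.99. Against the other chromosomes, density was 0.023 over both marks and 0.46 for H3K27ac, and covered length was 0.21 and 0.84. Asking for an overlap of 50% of the shorter interval gave 0.156 for replication over both marks, and -13.1 and -0.938 for the H3K27ac and H3K4me1 shares. With equal numbers of the widest peaks, overlap over both marks was 1.64 and the H3K4me1 share 14.2, and with a common minimum width and joining distance that share was 10.3. With H3K4me1 replicate 1 alone, H3K4me1 at the middle was -6.55. Leaving out 1 library at a time gave -5.28 to 1.71 for peak overlap over both marks, -12.4 to -6.02 for the H3K27ac share, 5.12 to 8.21 for the H3K4me1 share and -16.3 to -6.55 for H3K4me1 at the middle.

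With the replicate number as a replicate block, H3K27ac minus H3K4me1 was 0.16 for density, 0.49 for covered length, 0.48 for width, 0.554 points for replication and -16.3 points for overlap, and 0 of 5 were called. Same-numbered libraries deviated with a correlation of -0.140 over 517 tiles, so a crossed pairing was added after seeing the data, which also called 0 of 5. The smallest exact p was 0.5 in both. Taking the stretch without peaks off window 1 was added after seeing the data too. With 2 libraries per mark, no test here could pass 0.05, and the depth of the libraries is unknown.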
